A study of Homo sapiens with 6 samples.

Results

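The genes described here were 6 members of the STAT family of transcription factors (STAT2, STAT3, STAT4, STAT5A, STAT5B and STAT6) and 3 members of the SOCS family of inhibitors (SOCS1, SOCS2 and SOCS3). They were chosen by name as parts of the JAK-STAT pathway, with earlier results of these data known. They are 9 of the 60498 genes in the deposited table. Averaged over the 6 libraries, 15126 genes reached 10 counts or more and were analysed, 8 of the 9 among them. STAT4, with a mean count of 9.33, was not.

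STAT proteins wait in the cytoplasm as inactive factors. When an interferon or cytokine binds its receptor, the attached Janus kinases (JAKs) phosphorylate STAT proteins, which pair and enter the nucleus. Type I and type III interferons act largely through ISGF3, a complex that holds STAT2 and IRF9 and binds interferon-stimulated response elements (ISREs), while other STAT pairs bind gamma-activated sites. SOCS proteins are themselves induced by STAT signalling and close the loop by blocking JAKs or receptors.

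The study asked how haplotypes of STING1, the receptor for the second messenger cGAMP, shape interferon responses in cancer cells. RNA was sequenced from SKOV3, the parent, an ovarian cancer cell line that carries a WT and a HAQ copy of STING1 (WT/HAQ), and from a pair of CRISPR-edited derivatives that kept either the WT copy (WT/-) or the HAQ copy (HAQ/-). HAQ is a common human haplotype of STING1 that carries several amino acid changes. Each line gave 1 control library and 1 library from cells exposed to 2'3'-cGAMP at 10 µg/mL for 30 min and left for 4 h, with digitonin used to let cGAMP into the cells. How the control cells were handled is not given in the sources used here. The edited lines are each a single clone obtained by limiting dilution after lentiviral delivery of Cas9 and guides, so an effect of the haplotype and of the clone cannot be told apart. Each value below comes from 1 library, there was no replicate of any line and treatment, and every interval covers counting error alone.

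Libraries held 12444822 to 17608467 counts. Normalized counts are estimated counts scaled to a common library size. STING1, the edited gene, stood at 669 normalized counts in the WT/HAQ control library and 1780 with cGAMP, at 353 and 553 in WT/-, and at 213 and 403 in HAQ/-. The clones were thus lower than the parent in both conditions. A count per gene does not show which haplotype was transcribed. All 7 epithelial and ovarian carcinoma markers examined were expressed (summed normalized count 72615 to 112868 per library), whereas 5 leukocyte markers summed to 1.87 to 8.01, 2 endothelial markers to 7.07 to 27.1 and 3 fibroblast markers to 944 to 1389. Of the fibroblast markers, COL3A1 had 0 counts without and 51 with cGAMP in WT/HAQ, 1 and 41 in HAQ/-, and 1 and 0 in WT/-, and its part in the results was not tested. No leukocyte marker reached 10 counts in any library. ERBB2 made up most of the epithelial sum (46462 to 69247), which was lower with cGAMP in each line (112868 and 92758 in WT/HAQ, 88063 and 72615 in WT/-, 91873 and 87380 in HAQ/-). Within the list, KRT19 differed between lines, at 5629 normalized counts in the parent control, 364 in WT/- and 414 in HAQ/-, and PAX8 was lower with cGAMP, at 6751 and 1966 in the parent, 9391 and 4970 in WT/-, and 4613 and 3276 in HAQ/-. Their part in the results was not tested. In bulk RNA, fewer cells that express a gene and less of its RNA per cell cannot be told apart.

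STAT2, SOCS1 and SOCS3 rose with cGAMP in all 3 lines, and they were the members called by the test over the lines. STAT3, STAT5A, STAT5B and STAT6 stayed within 1.5-fold of the control in each line. SOCS2 was lowered with cGAMP in WT/HAQ and WT/-, whereas in HAQ/- it stood at 1.27 times the control (1.13 to 1.43), within that limit. Apart from cGAMP, the lines differed in their levels of several members, most of all SOCS3, which was 4.71-fold higher in WT/- control cells than in the parent, and STAT5A, which in HAQ/- control cells was at 0.198 of the parent level.

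A gene was counted as raised or lowered within a line when its normalized count differed at least 1.5-fold, whatever the width of its interval. By that measure 3 of the 8 members were raised in each line. Over all genes, 12.9% were raised in the parent, 11.9% in WT/- and 6.77% in HAQ/-. One member, SOCS2, was lowered in WT/HAQ and in WT/-, and 0 in HAQ/-, where the shares over all genes were 12.3%, 8.79% and 5.79%. All 3 were raised in every line, as were 3.11% of all genes, and 0 members were lowered in every line, against 1.34%. For a test over the lines, the 3 cGAMP libraries were set against the 3 controls by edgeR's quasi-likelihood method, blocked by line. Adjustment was by Benjamini-Hochberg over all 15126 genes. The lines, which differ in STING1 genotype, served as the replicates, so differences of fold between them enter the test as spread. This test called 3 of the 8 members higher, against 2.27% of all genes, and 0 lower, against 0.959%. Before adjustment 3 members were again higher and 0 lower where p was under 0.05, against 11.6% and 13.6% of all genes, and DESeq2 also called 3 higher and 0 lower, against 5.10% and 3.85%. On the log2 scale the median fold of the 8 members was -0.09 for the parent, 0.08 for WT/- and 0.19 for HAQ/-, where the median of all genes was -0.01, -0.00 and -0.01.

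**Figure D1:**
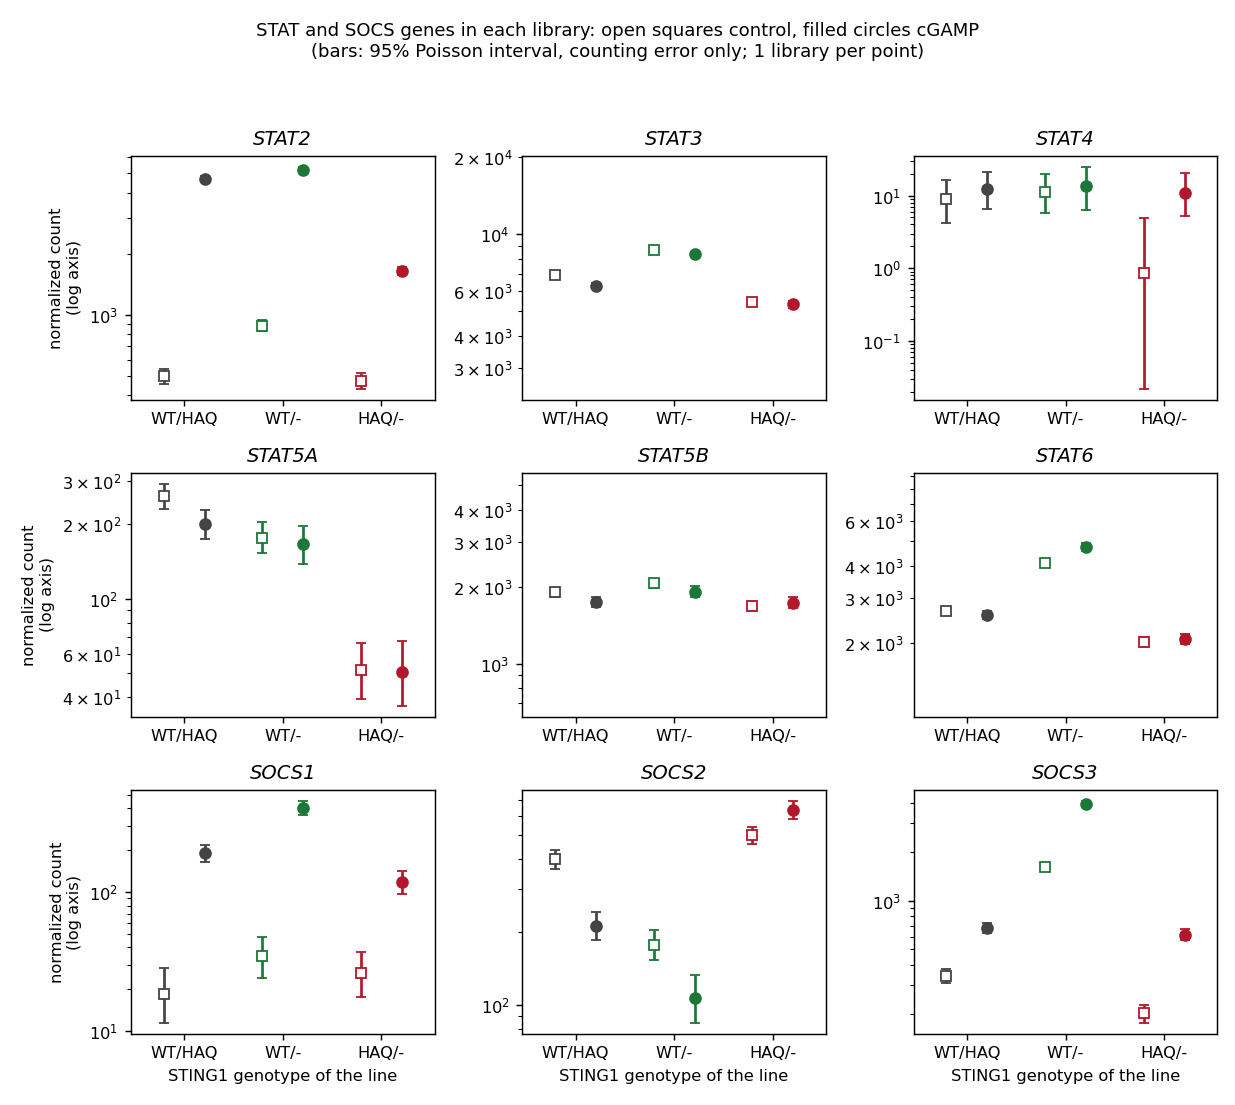
Normalized counts (log axis) of each STAT and SOCS gene in the 6 libraries, grouped by STING1 genotype, with control libraries as open squares, cGAMP libraries as filled circles and 95% Poisson intervals as bars. STAT2 rises from 496, 883 and 471 to 4691, 5182 and 1643, while SOCS2 falls in WT/HAQ and WT/- and is higher with cGAMP in HAQ/- (501 to 636).

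STAT2 is the STAT of ISGF3 and, unlike most of the family, works mainly in type I and type III interferon signalling. The gene lies on chromosome 12 (chr12:56341597-56360203, minus strand, GRCh38). Its normalized count was 496 in the WT/HAQ control library and 4691 with cGAMP. In WT/- it was 883 without and 5182 with cGAMP, and in HAQ/- it was 471 and 1643. All 3 cGAMP libraries were above all 3 control libraries, a separation seen in 2 of the 8 members (STAT2 and SOCS1) and in 7.99% of all genes. The reverse separation was seen in 0 members and 8.61% of all genes. The fold was 9.46 in the parent (95% interval 8.67 to 10.3), 5.87 in WT/- (5.47 to 6.31) and 3.49 in HAQ/- (3.16 to 3.86). Over the lines, edgeR gave a log2 fold of 2.54 (SE 0.28) with an adjusted p of 0.0189, higher in 3 of 3 lines, and 8 alternative fits gave adjusted p from 5.11e-19 to 0.280.

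The fold of STAT2 differed between the lines beyond counting error. On the log2 scale, the fold in HAQ/- was below that in WT/HAQ by 1.44 (1.25 to 1.63) and below that in WT/- by 0.75 (0.58 to 0.93). The HAQ/- and parent control libraries were close (95% interval of the ratio 0.843 to 1.07), while with cGAMP HAQ/- reached 0.350 of the parent level (0.330 to 0.371). WT/- showed another arrangement, in which the control level was 1.78 times that of the parent and the cGAMP level 1.10 times (1.06 to 1.15), giving a smaller fold from a higher start. With 1 library in each cell of the design, the differences between lines have no replicate check.

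IRF9, the DNA-binding partner of STAT2 in ISGF3, also rose. IRF9 stood at 188 normalized counts without and 1345 with cGAMP in the parent, 545 and 1414 in WT/-, and 190.2 and 953 in HAQ/-. The edgeR log2 fold was 2.16 (SE 0.28, adjusted p = 0.0297, 7.38e-12 to 0.174 over the alternatives). The smallest fold of IRF9 was in WT/-, at 2.60, where its control level was highest, while that of STAT2 was in HAQ/-.

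Patterns most like that of STAT2 were found by centring log2 levels over the 6 libraries and taking the root-mean-square difference. The closest genes were APOL3 (0.111), IFI27 (0.132) and ZNFX1 (0.163). APOL3 stood at 67.2 normalized counts without and 601 with cGAMP in the parent, 98.9 and 747 in WT/-, and 62.8 and 218 in HAQ/-. The likeness rests on 6 libraries that share their lines and treatment, and is a description.

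The 250 bases before the start of the GENCODE canonical transcript are shown for STAT2 and SOCS1, the members whose cGAMP libraries all lay above the controls, since these are the windows that would hold nearby sites for STAT complexes. Each runs 5′ to 3′ on the minus strand of GRCh38, and capitals mark a match to a searched motif. The motifs were the ISRE core (GAAANNGAAA), the gamma-activated site (TTCNNNGAA) and its wider STAT6 spacing (TTCNNNNGAA), searched on both strands. No match overlapped another. The STAT2 window is chr12:56360108-56360357 and the SOCS1 window chr16:11256205-11256454.
STAT2: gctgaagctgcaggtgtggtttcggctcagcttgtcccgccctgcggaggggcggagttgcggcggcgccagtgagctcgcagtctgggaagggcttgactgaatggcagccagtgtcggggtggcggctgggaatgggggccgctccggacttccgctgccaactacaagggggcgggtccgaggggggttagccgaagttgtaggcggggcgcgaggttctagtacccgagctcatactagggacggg
SOCS1: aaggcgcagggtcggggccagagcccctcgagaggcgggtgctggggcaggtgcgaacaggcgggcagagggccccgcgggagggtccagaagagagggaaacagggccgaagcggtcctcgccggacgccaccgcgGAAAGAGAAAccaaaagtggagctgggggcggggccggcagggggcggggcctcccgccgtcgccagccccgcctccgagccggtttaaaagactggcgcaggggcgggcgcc
SOCS1 held an ISRE core whose first base lay at position -113 from the start, and the STAT2 window held none of the 3 motifs. Of 20033 windows of 300 bases around such starts (250 before, 50 after), 3.28% held an ISRE core, 6.49% a gamma-activated site and 4.87% the STAT6 spacing. STAT6 held its own wider spacing at -243. In the RefSeq promoter windows of the same span (GRCh38), which covered 8 of the 9 members in 12 windows, the SOCS1 window is the same as the GENCODE window, and 3.57% of 35116 promoters held an ISRE core. There, 1 STAT5A window held the STAT6 spacing (6.44% of promoters). The RefSeq start of STAT6 lies 1073 bases from its GENCODE start, and the RefSeq window of STAT6 held none of the 3 motifs. SOCS2 is not in the RefSeq windows used. A match of letters is not a measured binding site.

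STAT3, which carries signals of IL-6 family cytokines, was the most abundant member per length of transcript in 5 of the 6 libraries. Its normalized count was 6933 in the WT/HAQ control and 6294 with cGAMP, 8642 and 8338 in WT/-, and 5432 and 5309 in HAQ/-. Control and cGAMP libraries overlapped, and the order followed the lines, with WT/- highest and HAQ/- lowest. The folds were 0.908, 0.965 and 0.977 in WT/HAQ, WT/- and HAQ/-, and edgeR gave a log2 fold of -0.07 (SE 0.06, adjusted p = 0.531). Between the clones, the HAQ/- control level was 0.629 of that of WT/- (0.609 to 0.649).

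STAT5A and STAT5B are closely related factors for growth hormone, prolactin and several cytokines. They lie beside STAT3 on chromosome 17 (STAT5B chr17:42199176-42288633, minus strand; STAT5A chr17:42287547-42311943, plus strand; STAT3 chr17:42313324-42388540, minus strand), with 1381 bases from the end of STAT5A to STAT3. STAT5B stood at 1905 and 1751 normalized counts without and with cGAMP in WT/HAQ, at 2064 and 1918 in WT/-, and at 1682 and 1733 in HAQ/-. It was the steadiest member, with a 1.23-fold range over the 6 libraries, and the intervals of neighbours in its order of levels overlapped throughout. Its edgeR log2 fold was -0.06 (SE 0.07, adjusted p = 0.649).

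STAT5A, in contrast, was low in HAQ/-. It stood at 259.9 and 201 normalized counts without and with cGAMP in WT/HAQ, at 177 and 166 in WT/-, and at 51.5 and 50.4 in HAQ/-. Both HAQ/- libraries lay below the other 4. The HAQ/- control level was 0.198 of the parent (0.147 to 0.263) and 0.290 of WT/- (0.213 to 0.391), and with cGAMP the ratios were 0.251 and 0.304. With cGAMP the edgeR log2 fold was -0.19 (SE 0.13, adjusted p = 0.433), and the fold within HAQ/- had a wide counting interval.

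STAT5A made up 12.0% of the summed STAT5A and STAT5B counts in the WT/HAQ control library (exact binomial 95% interval 10.7 to 13.4) and 10.3% with cGAMP. The share was 7.91% and 7.95% in WT/-, and 2.97% (2.27 to 3.81) and 2.82% in HAQ/-. Because STAT5B was the larger part, the sum of both genes fell by 0.32 on the log2 scale between the parent and HAQ/- control libraries (0.23 to 0.41). The pair can share reads. Of the 150-base stretches of the STAT5A canonical transcript, 7.73% recur exactly in some GENCODE transcript of STAT5B. In addition, 415 exonic bases of the genes overlap on opposite strands. How the estimation split such reads was not tested. The genes closest in pattern to STAT5A were PELI2 (0.263), EFEMP1 (0.283) and TRPM2 (0.308). EFEMP1, for example, stood at 269.6, 301, 239 and 239 normalized counts in the WT/HAQ and WT/- libraries and at 44.5 and 56.9 in HAQ/-.

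STAT6, the factor of IL-4 and IL-13 signalling, differed between lines more than between treatments. It lies on chromosome 12 (chr12:57095408-57132139, minus strand). STAT6 stood at 2673 and 2569 normalized counts without and with cGAMP in WT/HAQ, 4105 and 4748 in WT/-, and 2015 and 2072 in HAQ/-. The WT/- libraries were the highest in both conditions, 1.54 times the parent in control cells (1.47 to 1.61) and 1.85 times with cGAMP (1.76 to 1.94). HAQ/- control cells were at 0.491 of WT/-. On the opposite strand, LRP1 shares 59 exonic bases with STAT6 and was also highest in WT/-, with 1448 and 941 counts without and with cGAMP against 319 and 259 in WT/HAQ and 605 and 476 in HAQ/-. NAB2 shares 69 bases, and the part of either in the STAT6 counts was not tested. The edgeR log2 fold with cGAMP was 0.06 (SE 0.08, adjusted p = 0.669). ANKRD36B (0.065) and OPTN (0.067) had patterns close to that of STAT6, together with a gene listed only as ENSG00000256594 (0.065).

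STAT4, a factor of IL-12 signalling known mainly from lymphocytes, was barely detected. Its counts were 10 and 13 without and with cGAMP in WT/HAQ, 12 and 10 in WT/-, and 1 and 10 in HAQ/-. The HAQ/- ratio of these counts, taken without the floor of 3 counts used for other folds, was 12.5 after scaling with an interval from 1.79 to 545. No test was made for this gene because its mean count was under the limit. It lies on chromosome 2 (chr2:191029576-191151596, minus strand).

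SOCS1 is the SOCS protein best known for shutting down interferon signalling, through direct inhibition of JAKs. It is a short gene on chromosome 16 (chr16:11254417-11256204, minus strand). Its normalized count was 18.6 in the WT/HAQ control library and 191 with cGAMP. In WT/- it was 34.5 and 402, and in HAQ/- 26.2 and 118. All cGAMP libraries lay above all control libraries, and among the 3 control libraries the intervals of neighbouring levels overlapped. The fold was 10.3 in the parent (6.55 to 17.0), 11.6 in WT/- (8.26 to 16.9) and 4.52 in HAQ/- (2.99 to 7.01). Over the lines the edgeR log2 fold was 3.06 (SE 0.30, adjusted p = 0.0140, 3.24e-14 to 0.229 over the alternatives), higher in 3 of 3 lines.

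As for STAT2, the fold of SOCS1 was smaller in HAQ/- than in the other lines. The log2 difference was 1.19 against WT/HAQ (0.32 to 2.06) and 1.37 against WT/- (0.60 to 2.13), while WT/HAQ and WT/- differed by -0.18 with an interval that included 0 (-0.99 to 0.64). With cGAMP the level in WT/- was 2.10 times that of the parent, and that in HAQ/- 0.294 of WT/-. The genes closest to SOCS1 in pattern were TLR3 (0.267), a sensor of double-stranded RNA, TRIM69 (0.294) and DHX58 (0.346), a regulator of RNA sensing. TLR3 stood at 11.5 without and 125 with cGAMP in the parent, 35.5 and 232 in WT/-, and 19.2 and 87.6 normalized counts in HAQ/-.

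SOCS3 is best known for restraining STAT3 signalling downstream of IL-6 family cytokines. It lies on chromosome 17 (chr17:78356778-78360077, minus strand). Its normalized count was 341 in the WT/HAQ control library and 677 with cGAMP, 1606 and 3964 in WT/-, and 201 and 617 in HAQ/-. Control and cGAMP libraries overlapped across lines, since WT/- control cells held more SOCS3 than the cGAMP-exposed cells of either other line. Within each line SOCS3 rose, by 1.98-fold in the parent (1.75 to 2.25), 2.47-fold in WT/- (2.33 to 2.62) and 3.08-fold in HAQ/- (2.63 to 3.60). The edgeR log2 fold was 1.30 (SE 0.13, adjusted p = 0.0152, 1.68e-11 to 0.755 over the alternatives), higher in 3 of 3 lines.

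The order of SOCS3 folds was the opposite of that of STAT2. The fold in HAQ/- exceeded that in WT/HAQ by 0.63 on the log2 scale (WT/HAQ minus HAQ/- -0.63, -0.92 to -0.35) and that in WT/- by 0.32 (WT/- minus HAQ/- -0.32, -0.56 to -0.08). HAQ/- reached that fold from the lowest control level, 0.588 of the parent (0.497 to 0.694), and with cGAMP its level was 0.912 of the parent (0.815 to 1.02). Between the clones the gap was wide. HAQ/- was at 0.125 of WT/- in control libraries (0.108 to 0.143) and at 0.156 with cGAMP (0.142 to 0.170). Genes of like pattern were TINAGL1 (0.323), C1S (0.470) and IRF1 (0.492), the last an interferon-responsive transcription factor. IRF1 stood at 3252 without and 9248 with cGAMP in the parent, 10982 and 18074 in WT/-, and 1307 and 4292 normalized counts in HAQ/-.

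SOCS2 mainly restrains growth hormone signalling through STAT5. The gene lies on chromosome 12 (chr12:93569814-93583487, plus strand). Its normalized count was 398 in the WT/HAQ control library and 212 with cGAMP, 177 and 107 in WT/-, and 501 and 636 in HAQ/-. The log2 fold was -0.91 in the parent (-1.15 to -0.67), -0.73 in WT/- (-1.13 to -0.35) and 0.34 in HAQ/- (0.18 to 0.51), where the value stayed under 1.5-fold. Over the lines edgeR gave -0.38 (SE 0.27, adjusted p = 0.441, 0.00858 to 0.980 over the alternatives). Without the HAQ/- line the log2 fold was -0.83 with an edgeR adjusted p of 0.00858.

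SOCS2 was also the member with the opposite order of lines to SOCS3 and STAT6. Its control level in WT/- was 0.446 of the parent (0.374 to 0.529), and HAQ/- was 2.82 times WT/- (2.39 to 3.35). With cGAMP the distance grew to 5.95 times (4.70 to 7.62). An antisense gene, SOCS2-AS1, overlaps SOCS2 over 277 exonic bases, and its counts were 46 and 42 without and with cGAMP in WT/HAQ, 14 and 17 in WT/-, and 88 and 80 in HAQ/-. The use of strand in counting is not given in the sources used here, so reads of this pair may not be separable. TIAM1 (0.158), SMIM3 (0.160) and GRK5 (0.182) were closest in pattern. TIAM1 stood at 225 without and 109 with cGAMP in the parent, 108 and 66.8 in WT/-, and 345 and 321 normalized counts in HAQ/-.

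**Figure D2:**
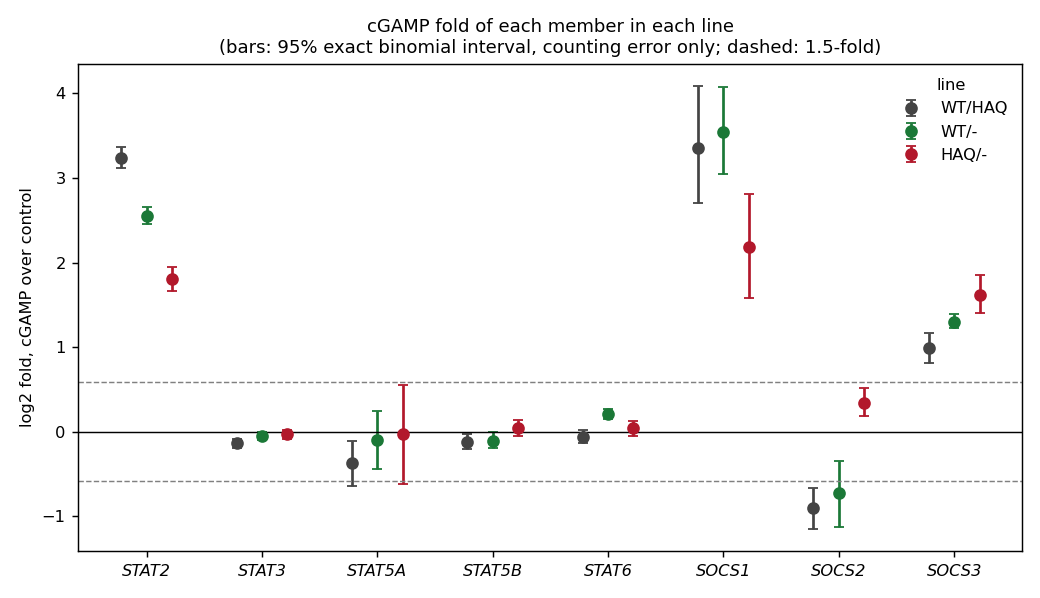
Log2 fold of cGAMP over control for the 8 members analysed, with 1 point per line, 95% exact binomial intervals as bars and the 1.5-fold limits dashed. STAT2 and SOCS1 are lowest in HAQ/- (1.80 and 2.18), SOCS3 is highest there (1.62), and SOCS2 lies below 0 in WT/HAQ and WT/- and above 0 in HAQ/-.

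Counted over the members, the difference between folds split both ways. Against HAQ/-, WT/HAQ had a fold at least 1.5 times larger for 2 of the 8 members, STAT2 and SOCS1, where 12.5% of all genes had such a difference, and HAQ/- had the larger fold for SOCS2 and SOCS3, where the share of all genes was 10.5%. After thinning to the smallest total the difference for SOCS3 was -0.43, under 1.5 times. WT/- exceeded HAQ/- for STAT2 and SOCS1 (12.0% of all genes) and fell behind it for SOCS2 (8.29%). Between WT/HAQ and WT/- the fold was larger in WT/HAQ for STAT2 (8.60%) and larger in WT/- for 0 members (10.1%).

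Levels also differed between the lines in the absence of cGAMP. WT/- control cells held more STAT2, STAT6, SOCS1 and SOCS3 than the parent (ratios 1.78, 1.54, 1.86 and 4.71, 4 of 8 members, 13.0% of all genes) and less SOCS2 (1 of 8, 9.90%). HAQ/- control cells held less STAT5A and SOCS3 (2 of 8, 8.62%) and more of 0 members (7.40%). After thinning of the libraries to the smallest total, the log2 ratio of SOCS3 was -0.56 and no longer reached 1.5-fold, while that of SOCS1 reached it at 0.65. In the same setting STAT5A in WT/- control cells was lowered as well, at -0.63 against the parent. Between the clones, STAT2, STAT3, STAT5A, STAT6 and SOCS3 were lower in HAQ/- (5 of 8, 15.3%) and SOCS2 higher (1 of 8, 11.7%). These comparisons share their libraries, and how much of any gap belongs to the haplotype cannot be told apart from the clone.

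With cGAMP, STAT6, SOCS1 and SOCS3 were higher in WT/- than in the parent (3 of 8, 14.6%) and SOCS2 was lower (1 of 8, 9.90%). In HAQ/-, STAT2, STAT5A and SOCS1 were lower than in the parent (3 of 8, 13.3%) and SOCS2 was higher (1 of 8, 9.88%, interval of the ratio 2.57 to 3.52). Against WT/-, 6 of 8 members were lower in HAQ/- (19.0%), all but STAT5B and SOCS2, and SOCS2 was higher (1 of 8, 12.4%).

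**Figure D3:**
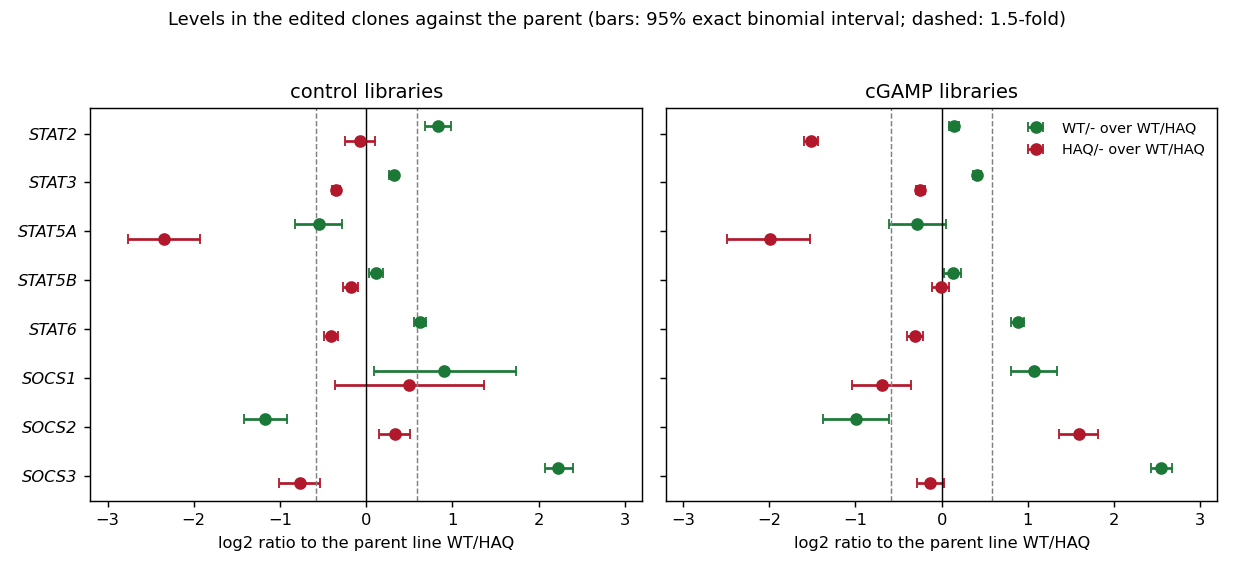
Log2 ratio of each clone to the parent line WT/HAQ for the 8 members analysed, in control libraries (left) and cGAMP libraries (right), with 95% exact binomial intervals as bars and the 1.5-fold limits dashed. SOCS3 in WT/- (2.23 and 2.55) and STAT5A in HAQ/- (-2.34 and -1.99) lie far from 0 in both panels, while STAT2 in HAQ/- is at -0.07 in control and -1.51 in cGAMP libraries.

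Levels of different genes were compared per kilobase of merged exons and scaled by library size, a unit like RPKM. In the WT/HAQ control library the order was STAT3 (39.6), STAT6 (23.5), STAT5B (10.1), SOCS3 (interval 7.22 to 8.84), SOCS2 (3.94), STAT2 (3.41), STAT5A (2.61), SOCS1 (0.665) and STAT4 (0.123). The intervals of SOCS2 and STAT2 overlapped, and those of the other neighbours did not. With cGAMP, STAT2 moved to 32.3, next to STAT3 at 36.0. In WT/- control cells STAT3 (49.4) was followed by SOCS3 (37.6) and STAT6 (36.0), whose intervals overlapped each other. After cGAMP SOCS3 was the highest member in WT/- at 92.9, ahead of STAT3 at 47.7. SOCS1 stood at 0.665 without and 6.85 with cGAMP in the parent, 1.24 and 14.4 in WT/-, and 0.938 and 4.24 in HAQ/-, below SOCS3 in each of the 6 libraries.

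Beyond the members, 59 other genes of the pathway were examined, of which 53 were analysed. They too were listed with earlier results of these data known. The edgeR test called 5 of them higher and 4 lower, where 2.27% and 0.959% of all genes were called. Of 5 further SOCS family genes, edgeR and DESeq2 called 0 in either direction. Where the edgeR p was under 0.05 before adjustment, 0 were higher and 2 lower, against 11.6% and 13.6% of all genes. The DESeq2 shares over all genes were 5.10% higher and 3.85% lower. SOCS6 had an edgeR log2 fold of -0.46 (SE 0.12, adjusted p = 0.0933, 0.00652 to 0.398 over the alternatives). The median log2 fold of these 5 genes was -0.59 in the parent, -0.04 in WT/- and -0.15 in HAQ/-.

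Among 10 analysed negative regulators outside the SOCS family, edgeR called 1 higher and 0 lower (before adjustment 1 and 2, DESeq2 1 and 1). Shares of all genes were 2.27% and 0.959% in edgeR, 11.6% and 13.6% before adjustment, and 5.10% and 3.85% in DESeq2. The higher gene was USP18, which blocks the type I interferon receptor. It stood at 55.7 normalized counts without and 2436 with cGAMP in the parent, 68.1 and 2307 in WT/-, and 40.1 and 689 in HAQ/- (edgeR log2 fold 4.94, SE 0.26, adjusted p = 0.00388, 3.46e-66 to 0.124 over the alternatives). The lower gene of DESeq2 was SH2B3, and neither test called a PIAS protein or a tyrosine phosphatase.

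Of 17 analysed receptors and kinases, edgeR called 1 higher and 0 lower (before adjustment 4 and 4, DESeq2 2 and 1). Over all genes these shares were 2.27% and 0.959%, before adjustment 11.6% and 13.6%, and in DESeq2 5.10% and 3.85%. The higher gene was OSMR, the receptor subunit for oncostatin M, with a log2 fold of 0.59 (SE 0.08, edgeR adjusted p = 0.0313, 0.000190 to 0.412 over the alternatives). JAK2, a kinase that phosphorylates STAT proteins, had a larger but more variable fold. It stood at 145 normalized counts without and 1845 with cGAMP in the parent, 133 and 1286 in WT/-, and 142 and 280.2 in HAQ/-. Its edgeR log2 fold was 2.72 (SE 0.54, adjusted p = 0.0689, 6.65e-06 to 0.392 over the alternatives). IL6R, the receptor that binds IL-6, was singled out after its values were seen. It stood at 902 without and 98.9 with cGAMP in WT/HAQ, 1044 and 389 in WT/-, and 833 and 504 in HAQ/-, with an edgeR log2 fold of -1.69 (SE 0.46, adjusted p = 0.106, 0.00360 to 0.399 over the alternatives).

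Among 8 analysed ligands, edgeR called 2 higher and 2 lower, where the shares of all genes were 2.27% and 0.959%. IFNB1, a type I interferon, and IFNL1, a type III interferon, rose (edgeR adjusted p = 0.0166 and 0.0174, up to 0.325 and 0.334 over the alternatives). IFNB1 had 5 counts without and 1325 with cGAMP in the parent, 2 and 1934 in WT/-, and 6 and 15 in HAQ/-. IFNL1 had 4 and 1575 in the parent, 4 and 1633 in WT/-, and 7 and 17 in HAQ/-. LIF, an IL-6 family cytokine that signals through STAT3, fell with a log2 fold of -1.02 (SE 0.16, edgeR adjusted p = 0.0448, 2.10e-06 to 0.765 over the alternatives). LIF stood at 10554 normalized counts without and 3794 with cGAMP in the parent, 24229 and 14898 in WT/-, and 6162 and 3368 in HAQ/-. CSF2, which encodes the STAT5-activating cytokine GM-CSF, fell as well, with 43 counts without and 0 with cGAMP in the parent, 304 and 5 in WT/-, and 9 and 0 in HAQ/- (edgeR adjusted p = 0.00932, 1.88e-09 to 0.323 over the alternatives).

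Of 12 genes known as targets of STAT3 or STAT5, edgeR called 0 higher and 2 lower (before adjustment 1 and 6, DESeq2 0 and 4). Over all genes the lower share was 0.959% in edgeR, 13.6% before adjustment and 3.85% in DESeq2. The pair called by edgeR encodes PIM kinases, which promote growth and survival. PIM1 stood at 666 normalized counts without and 302 with cGAMP in the parent, 1199 and 670.5 in WT/-, and 412 and 207 in HAQ/- (edgeR log2 fold -0.99, SE 0.09, adjusted p = 0.0122, 7.71e-08 to 0.592 over the alternatives). PIM3 had a log2 fold of -1.24 (SE 0.20, edgeR adjusted p = 0.0455, 1.00e-06 to 0.535 over the alternatives). The median log2 fold of the 12 genes was -0.24 in the parent, -0.23 in WT/- and -0.12 in HAQ/-.

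**Figure D4:**
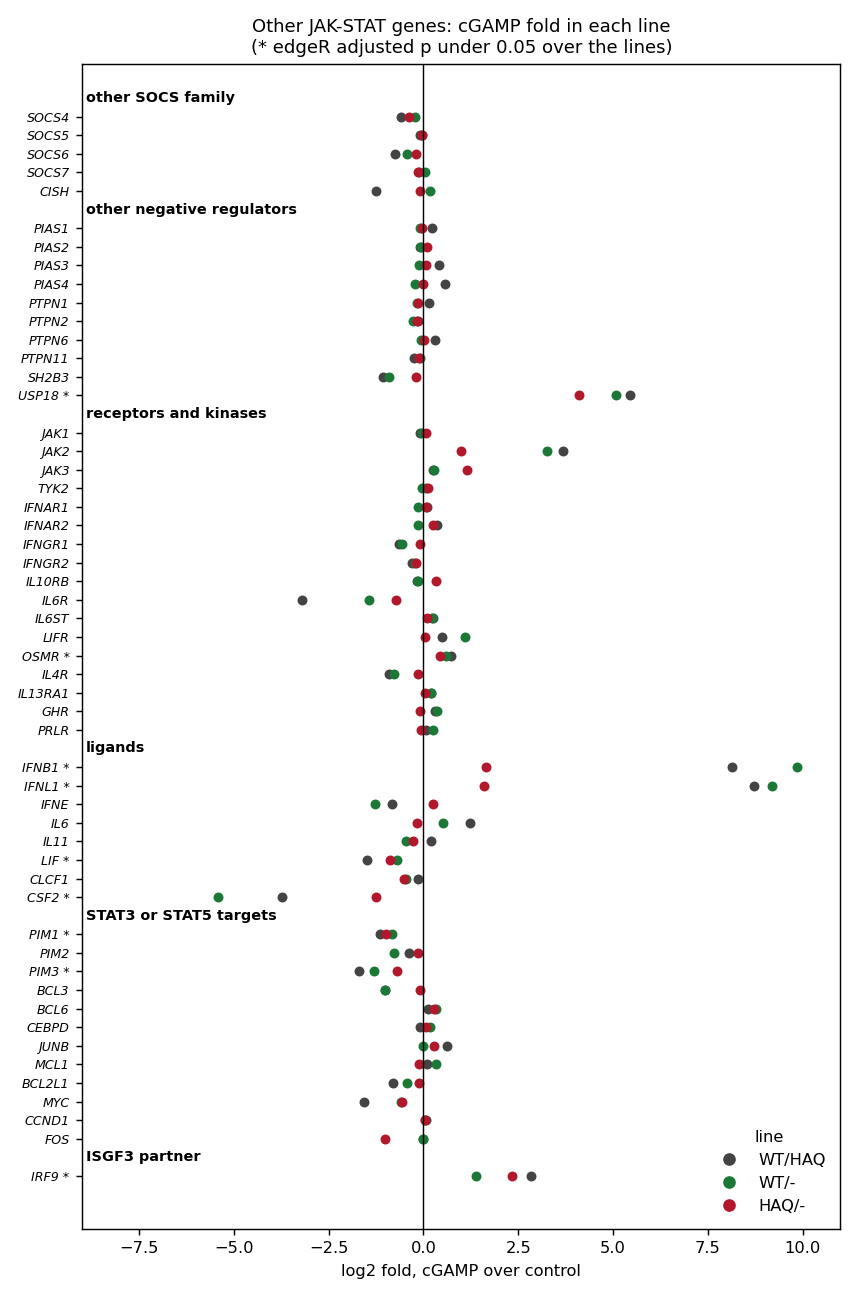
Log2 fold of cGAMP over control in each line for the 53 analysed JAK-STAT genes outside the members, grouped by role, with counts under 3 set to 3 and an asterisk where edgeR called the gene over the lines. USP18 and IRF9 lie to the right of 0 in all 3 lines, the points of JAK2, IFNB1 and IFNL1 for HAQ/- lie nearer to 0 than those of the other lines, and PIM1, PIM3, LIF and CSF2 lie to the left.

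The calls for STAT2, SOCS1 and SOCS3 rest on 3 pairs of libraries with 2 residual degrees of freedom. Without the WT/- line the edgeR log2 folds of STAT2, SOCS1 and SOCS3 were 2.54, 2.76 and 1.31 (adjusted p = 0.280, 0.229 and 0.262) in a fit that called 0 of 15128 genes, 953 higher and 945 lower before adjustment, whereas without WT/HAQ adjusted p was 0.0244, 0.0538 and 0.0172 and without HAQ/- it was 3.75e-05, 4.01e-05 and 0.000299.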

How the data were processed

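RNA-seq libraries of 3 SKOV3 lines, with or without cGAMP, were analysed (6 libraries, 1 per line and treatment). RNA was sequenced as 150 bp paired ends from poly(A) libraries. The authors deposited expected counts per Ensembl gene, which are estimates without normalization. The submitters' processing notes name STAR, RSEM and the build GRCh38 (hg38). Versions, annotation and strand setting are not given in the sources used here. All columns were matched to samples by label.

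Expected counts were rounded to whole numbers. Genes averaging 10 counts or more (15126 of 60498) were kept, and libraries were scaled by TMM in edgeR 4.0.16 (R 4.3.3). The quasi-likelihood test had treatment and line as terms, with Benjamini-Hochberg adjustment and a threshold of 0.05. Each SE beside an edgeR log2 fold was derived as the absolute log2 fold divided by the square root of the test's F statistic. Libraries were paired by line, as the labels give it. Deviations from the treatment means, on the log2 scale, correlated between the control and cGAMP library of a line at 0.39 (WT/HAQ), 0.68 (WT/-) and 0.52 (HAQ/-). Nothing states that libraries of a line came from separate cultures, so p-values measure the spread between these libraries alone. The fit was also run on simulated counts with known folds, and the outcome is not given here.

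For folds within a line, counts under 3 were set to 3, a gene with 3 or fewer counts in both libraries got no fold, and intervals were exact conditional binomial (Clopper-Pearson) at 95%. Intervals for differences of log2 folds used Poisson error of the 4 counts. Gene positions and exon lengths came from GENCODE 44. Promoter windows came from RefSeq, and windows at GENCODE canonical starts were added after the data were seen; that of SOCS3 is not reported here. Protein sequences were not analysed here.

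Members and lists were chosen with earlier results of these data known. Besides the members and STING1, named genes were the list genes called by edgeR (at most the 4 with the smallest adjusted p per list), the gene of each list with the largest mean absolute log2 fold, and, for members with a range of at least 1 on the log2 scale, the 3 genes of mean count at least 50 closest in pattern. IL6R, SH2B3, single cell type markers and genes that overlap a member were named after their values were seen. Alternatives were the omission of the line block, DESeq2 1.42.0, DESeq2 size factors, total counts, other filters, floors and fold limits, thinning to the smallest library, and leaving out each line.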

Additional observations from a re-analysis of the deposited data

Results flagged for a closer look

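The cGAMP fold of SOCS2 pointed in opposite directions between lines. The log2 fold was -0.91 in WT/HAQ and -0.73 in WT/-, and 0.34 in HAQ/-, and each counting interval left out 0. The difference between lines was not tested against replicates, since each line and treatment had 1 library. SOCS2-AS1, whose exons overlap those of SOCS2, had 88 and 80 counts in HAQ/- without and with cGAMP, against 46 and 42 in WT/HAQ. Its part in the SOCS2 values was not tested.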

How the results depend on the processing

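No called value changed sign under any alternative run. The calls over the lines depended on the fit. Without the replicate block, that is with the line left out of the model, 57 genes were called higher and 4 lower in place of 344 and 145, and 0 members in place of 3 (edgeR adjusted p = 0.123 for STAT2, 0.0906 for SOCS1 and 0.755 for SOCS3). Of the other pathway genes, 1 was then called higher in place of 5 and 0 lower in place of 4. DESeq2 called 772 genes higher and 583 lower, 3 members higher and 8 pathway genes lower. With a mean count of at least 1, 581 genes were higher and 424 lower, and with at least 50, 2 pathway genes were lower. Leaving out a line gave 0 to 1313 genes higher, 0 to 1314 lower, 0 to 3 members higher, 0 to 1 lower, 0 to 8 pathway genes higher and 0 to 15 lower. The low end came without WT/- and the high end without HAQ/-. SOCS1 also missed the threshold without WT/HAQ (edgeR adjusted p = 0.0538). Each of these fits has 1 residual degree of freedom, and the cause of the spread was not tested. When libraries were thinned to the smallest total, members lower in WT/- than WT/HAQ controls numbered 2 in place of 1 (10.6% of all genes after thinning), those in HAQ/- against WT/HAQ controls 1 higher in place of 0 (7.86%) and 1 lower in place of 2 (8.93%), and those with a larger fold in HAQ/- than in WT/HAQ 1 in place of 2 (11.2%). At a 2-fold limit 0 members were lowered in WT/HAQ (5.36% of all genes) and 0 in WT/- (3.48%), in place of 1 each, and 2 were raised in WT/HAQ (7.38%) in place of 3, as SOCS3 stood at 1.98-fold. At 1.2-fold 2 were lowered in WT/HAQ (26.6%), and 4 were raised in HAQ/- (15.5%), SOCS2 among them. Of the values for single genes, 815 kept their direction and side of the threshold or moved by less than counting error, 36 lost the threshold, 5 passed it and 17 moved further. Folds of STAT4, and of SOCS1 between control libraries, are limited by counts of 37 or fewer.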
